A study of Mus musculus with 6 samples.

Results

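Steroid, thyroid and lipid nuclear receptors were examined in fat progenitors of mice given rosiglitazone, through all probes of the array whose platform symbol was Nr3c1, Nr3c2, Esr1, Pgr, Thra, Thrb, Ppara, Ppard or Vdr. These 9 genes, of 19057 named on the platform, had 17 probes among the 45281 on the array. The cells were GFP-positive stromal-vascular cells from inguinal, interscapular and gonadal white fat of PPARgamma-tTA;tetO-H2B-GFP mice 2 to 6 months old, whose tTA transactivator is under Pparg control and turns on a green fluorescent histone. The rosiglitazone group had eaten chow with 0.0075% rosiglitazone, an agonist of PPARgamma, for 2 months, and the untreated group plain chow; all mice of both groups carried the same reporter alleles. Each group had 3 arrays, and each array was a cohort of 3 to 4 pooled mice, so every standard deviation and p-value here measures the spread between pools. The gate rests on that reporter, so any stromal-vascular cell with enough of it enters the sort.

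Nuclear receptors are transcription factors that bind DNA through zinc fingers and are switched by small lipid-soluble ligands. The steroid receptors wait for their hormone in complexes with chaperones and then bind DNA as dimers of themselves. The thyroid hormone receptors, the PPARs and the vitamin D receptor sit on DNA together with a retinoid X receptor and exchange corepressors for coactivators when ligand arrives. In fat, glucocorticoids promote the differentiation of preadipocytes, estrogen signalling restrains fat storage, and PPARs sense fatty acids.

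Clear signal came from a single probe each for Esr1 and Ppard, fainter signal from Vdr and signal at the edge of background from Thra. The probes of Nr3c1, Nr3c2, Pgr, Thrb and Ppara were not detected on any array. No probe of the 9 receptors passed the test between rosiglitazone and untreated cells. Intensities below are in the units of the deposited non-normalized table, and a probe counts as detected where its deposited detection p-value is under 0.05. Of the 17 probes, 4 were detected on at least 3 of the 6 arrays and were tested, which is 23.5%, against 36.3% of all probes on the array. Probes of different genes have scales of their own, so levels are compared between arrays and not between genes.

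Total intensity ran from 10330923 to 13615604 units on the rosiglitazone arrays and from 9478692 to 14831319 units on the untreated arrays. The share of probes detected was 35.1% to 37.5% on rosiglitazone arrays and 34.2% to 38.4% on untreated arrays. Of 15 progenitor marker symbols, among which Itgb1 and Cd29 name the same gene, 12 were tested and 0 passed, with a median log2 change of 0.08. Pdgfra, a defining marker of these progenitors picked after its values were seen, was at 11.78, 12.21 and 12.13 log2 units on rosiglitazone arrays and 11.61, 11.53 and 12.25 on untreated arrays. Macrophage markers differed between the groups: of 17 symbols listed, among which Emr1 and Adgre1 name the same gene, 13 were tested. Of the 13 tested, 12 passed as lower with rosiglitazone, against 2.27% of all tested genes, and the median log2 change was -2.50. Their summed normalized intensity was 2410 to 5620 units on rosiglitazone arrays and 16072 to 20520 units on untreated arrays, and of the 15 with a probe, Itgam was detected on no array. In pooled bulk RNA, fewer cells of a type and less RNA per cell cannot be told apart.

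**Figure D1:**
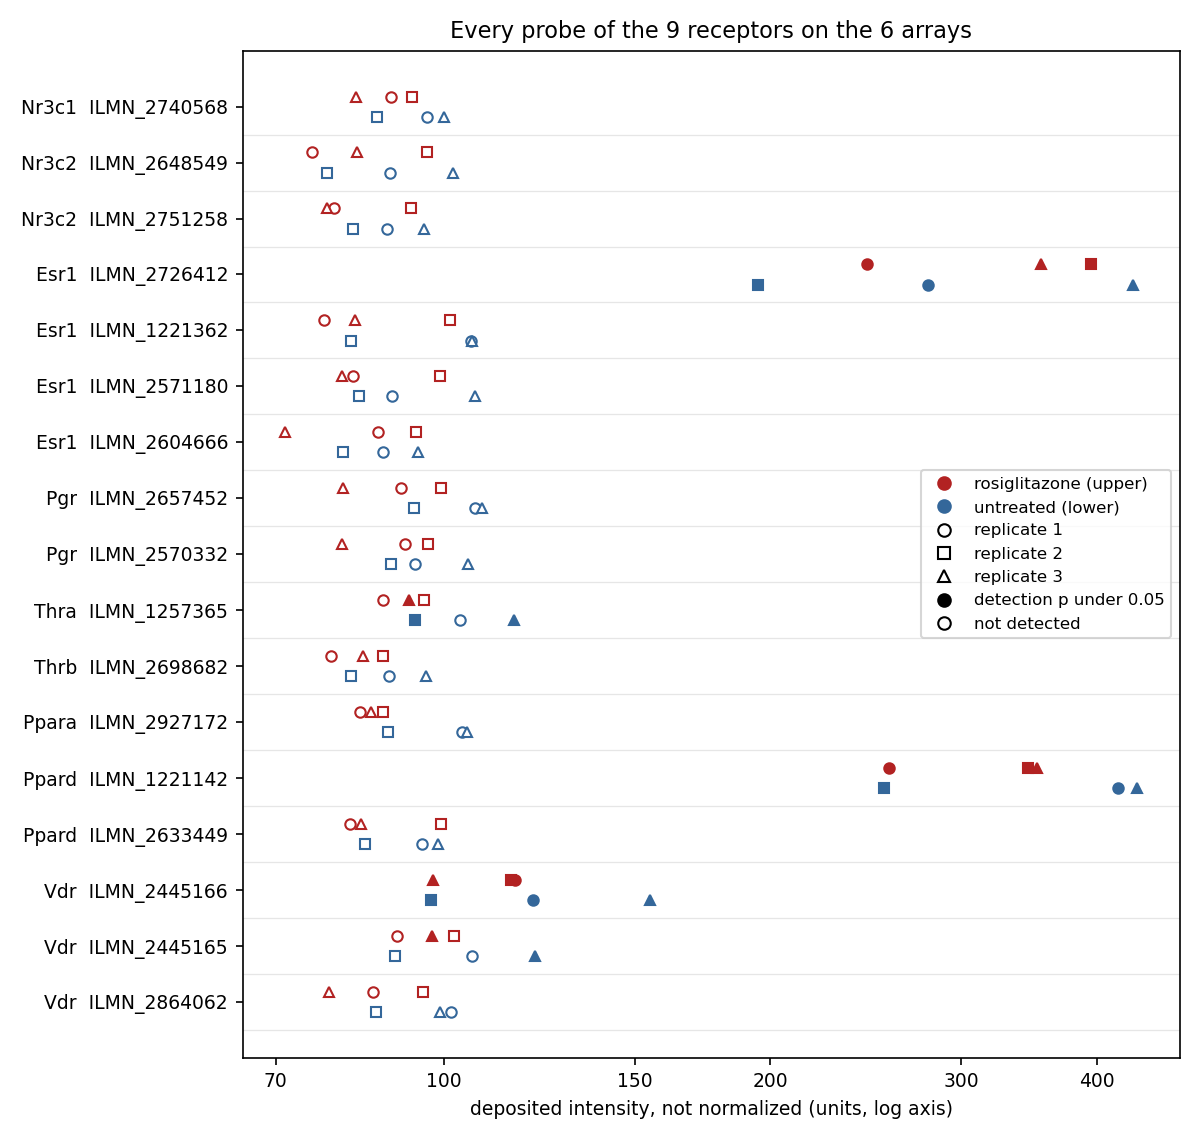
Deposited intensity (horizontal, log axis) of each of the 17 probes of the 9 receptors, with rosiglitazone arrays above untreated arrays in each row, a symbol per replicate and filled symbols where the detection p-value is under 0.05. A single Esr1 probe (195 to 432 units) and 1 Ppard probe (255 to 436 units) stand to the right of the other probes, most of which lie between 71.4 and 108 units and are not detected.

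Among the steroid receptors, Nr3c1 encodes the glucocorticoid receptor. Its single probe, ILMN_2740568, read 89.4, 93.6 and 83.1 units on the rosiglitazone arrays and 96.5, 86.7 and 100.1 units on the untreated arrays. The lowest of its 6 detection p-values was 0.172, so the probe gave no signal above background and no fold change is given. Nr3c2 encodes the mineralocorticoid receptor, which also binds glucocorticoids. Its 2 probes ranged from 75.6 to 96.5 units on rosiglitazone arrays and from 78.0 to 102.0 units on untreated arrays, and their lowest detection p-value was 0.3985. Pgr encodes the progesterone receptor. Its 2 probes, 1 for a RefSeq transcript and 1 for a cDNA clone, ranged from 80.6 to 99.4 units with rosiglitazone and from 89.4 to 108 units without, and the closest to detection was a p-value of 0.0534 on untreated replicate 2. Absence of probe signal leaves expression of these genes undetermined.

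Esr1 encodes estrogen receptor alpha, and 1 of its 4 probes gave signal. The probe ILMN_2726412, for a RefSeq transcript, read 246, 395 and 355 units on rosiglitazone arrays and 279.8, 195 and 432 units on untreated arrays, with a detection p-value of 0 on all 6 arrays. The other 3 Esr1 probes, 1 for a RefSeq transcript and 2 for cDNA clones, stayed between 71.4 and 101 units with rosiglitazone and between 80.8 and 107 units without, and were detected on no array. After normalization the detected probe was at 7.80, 8.11 and 8.09 log2 units on rosiglitazone arrays and at 7.36, 7.57 and 8.04 on untreated arrays. Untreated replicate 3 lay within the range of the rosiglitazone arrays, so the groups overlapped, and untreated replicates 1 and 2 were the lowest of the 6. The group means were 8.0 ± 0.17 with rosiglitazone and 7.66 ± 0.35 without (SD, n = 3), and the log2 change, 0.34 ± 0.21 (SE), did not pass (limma adjusted p = 0.59). Its 95% interval, -0.12 to 0.81, runs from 1.09-fold lower to 1.75-fold higher. Without untreated replicate 3 the log2 change was 0.53, and without untreated replicate 1 it was 0.20, and neither passed.

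Thra and Thrb encode the thyroid hormone receptors alpha and beta. The only Thra probe, ILMN_1257365, read 88.0, 95.9 and 92.9 units on rosiglitazone arrays and 103.5, 94.1 and 116 units on untreated arrays. It was detected on 1 of 3 rosiglitazone arrays and 2 of 3 untreated arrays, and its detection p-values on those 3 arrays, 0.0278, 0.0491 and 0.0288, put it barely inside the rule for testing. Normalized values were 4.45, 4.34 and 4.74 log2 units with rosiglitazone and 4.52, 4.79 and 4.73 without, against a lowest detected signal of 4.65 to 4.79 on the 6 arrays. The groups overlapped, and the log2 change of -0.17 ± 0.18 did not pass (limma adjusted p = 0.78; 95% interval -0.58 to 0.23). The Thrb probe, ILMN_2698682, read 78.7 to 88.0 units on rosiglitazone arrays and 82.2 to 96.4 units on untreated arrays, and its lowest detection p-value was 0.289.

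Ppara and Ppard encode fatty acid receptors of the same subfamily as the drug's target, PPARalpha being best known in liver and PPARdelta being widely expressed. The Ppara probe, ILMN_2927172, read 83.7, 88.0 and 85.8 units with rosiglitazone and 103.9, 88.8 and 105.2 units without, and was not detected on any array. The Ppard probe ILMN_1221142 read 257, 346 and 353 units on rosiglitazone arrays and 419, 255 and 436 units on untreated arrays, with a detection p-value of 0 on all 6. Its normalized values were the tightest of the tested receptors, at 7.89, 7.87 and 8.08 log2 units with rosiglitazone and 8.12, 8.13 and 8.05 without. Rosiglitazone replicate 3 overlapped the untreated arrays, while the other rosiglitazone arrays lay below all of them. The means were 7.94 ± 0.11 with rosiglitazone and 8.10 ± 0.04 without (SD, n = 3), and the log2 change, -0.16 ± 0.16, did not pass (limma adjusted p = 0.78). The 95% interval, -0.52 to 0.20, runs from 1.43-fold lower to 1.15-fold higher. A second RefSeq probe of Ppard, ILMN_2633449, lay between 82.0 and 99.4 units on rosiglitazone arrays and between 84.5 and 98.8 units on untreated arrays and was detected on none.

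Vdr encodes the vitamin D receptor and had 3 probes at 3 different levels of detection. ILMN_2445166 was detected on all 6 arrays, at 116, 115 and 97.8 units with rosiglitazone and at 121, 97.4 and 155 units without. ILMN_2445165 was detected on rosiglitazone replicate 3 and untreated replicate 3 alone, with p-values of 0.0064 and 0.0096, and ILMN_2864062 on no array. For the first of these the normalized values were 5.88, 5.04 and 4.94 log2 units on rosiglitazone arrays and 5.16, 5.05 and 5.75 on untreated arrays. Rosiglitazone replicate 1 and untreated replicate 3 were high and the other 4 arrays low, so the spread within each group exceeded the difference between them. The log2 change of -0.04 ± 0.28 did not pass (limma adjusted p = 0.98), and its 95% interval of -0.65 to 0.58 runs from 1.57-fold lower to 1.49-fold higher. When single arrays were left out the log2 change ranged from -0.33 to 0.18, so its sign is not settled.

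**Figure D2:**
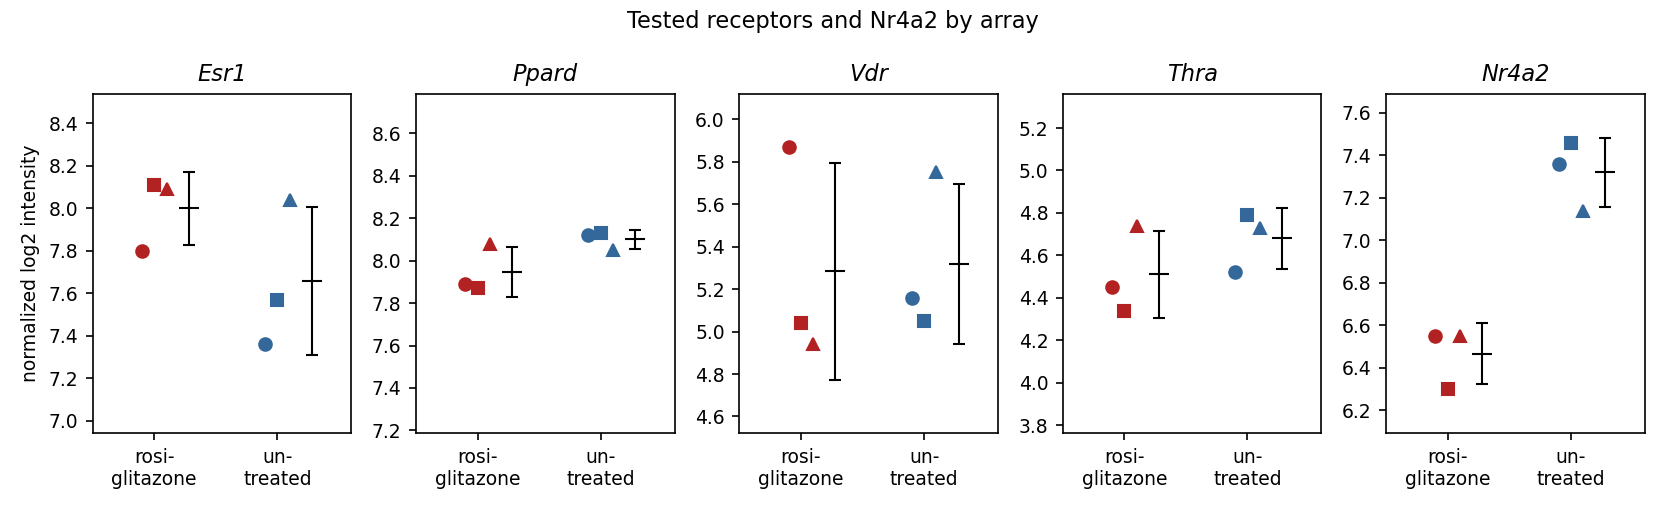
Normalized log2 intensity (vertical, a scale for each panel) of the brightest tested probe of Esr1, Ppard, Vdr, Thra and, for comparison, Nr4a2 on 3 rosiglitazone and 3 untreated arrays, with a symbol per replicate and the mean ± SD in black. The groups overlap for Esr1, Ppard, Vdr and Thra, and do not overlap for Nr4a2 (6.55, 6.30 and 6.55 with rosiglitazone, 7.36, 7.46 and 7.14 without).

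Of the 4 tested probes, 0 passed an adjusted p of 0.05 and 0 had an unadjusted p under 0.05. Over all 16442 tested probes 2.38% passed (0.493% higher and 1.89% lower), 12.1% had an unadjusted p under 0.05, and 17.2% had groups that did not overlap, which was so for 0 of the 4. With 4 probes these shares allow no statement about the receptors as a set. The smallest change called anywhere in the comparison was 1.66-fold, which is not a limit of detection. The 95% intervals of Ppard, Thra and Vdr lay within that size on either side, while that of Esr1 reached past it. All Thra values and most Vdr values lay near background, where the offset understates change, so their intervals do not exclude a larger change. Of all tested probes, 22% had a larger absolute log2 change than Esr1 and 89% a larger one than Vdr.

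Start regions are shown for Esr1 and Ppard, the receptors with a probe at a detection p-value of 0 on all 6 arrays. Base composition was not used in that choice. RefSeq windows (GRCm38.p6) were found for 7 of the 9 genes. The 250 bases before each annotated start are printed 5′ to 3′ on the strand of the gene, with CpG dinucleotides in capitals.
Esr1 upstream window, chr10:4611739-4611988, plus strand: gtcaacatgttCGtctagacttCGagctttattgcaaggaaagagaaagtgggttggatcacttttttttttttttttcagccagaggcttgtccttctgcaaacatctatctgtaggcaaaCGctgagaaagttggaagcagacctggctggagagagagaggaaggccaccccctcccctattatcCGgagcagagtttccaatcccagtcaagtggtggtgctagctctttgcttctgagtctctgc
Esr1 downstream window, chr10:4709908-4710157, plus strand: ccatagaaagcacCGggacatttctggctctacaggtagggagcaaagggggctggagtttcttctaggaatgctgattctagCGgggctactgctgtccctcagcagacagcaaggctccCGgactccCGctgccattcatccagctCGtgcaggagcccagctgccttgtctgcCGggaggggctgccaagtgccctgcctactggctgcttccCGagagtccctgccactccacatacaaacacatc
Ppard window, chr17:28232504-28232753, plus strand: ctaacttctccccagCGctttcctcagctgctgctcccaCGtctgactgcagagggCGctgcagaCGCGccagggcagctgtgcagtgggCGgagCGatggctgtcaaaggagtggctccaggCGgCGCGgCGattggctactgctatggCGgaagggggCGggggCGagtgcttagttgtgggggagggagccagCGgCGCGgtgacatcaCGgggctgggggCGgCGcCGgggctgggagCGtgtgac
The Ppard window held 22 CpG dinucleotides at 69.6% G and C. The Esr1 windows held 4 and 7 CpG at 47.6% and 59.6% G and C, against medians of 6 CpG and 52.4% over 32851 windows of the same length. Among the receptors whose probes gave no signal the range was as wide, from 4 CpG for Pgr and 2 CpG for the downstream Thrb window to 30 CpG for the upstream Thrb window and 27 CpG for Ppara. The half-site AGGTCA was searched on both strands, and so was AGAACA, the half-site of steroid receptors other than the estrogen receptors. Neither occurred in the Esr1, Ppard or Vdr windows, and the upstream Thrb window held 1 AGGTCA and the downstream one 2 AGAACA; over all windows 14% held AGGTCA and 16.1% AGAACA. These letters describe the windows only.

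The 5 genes most like Esr1 across the 6 arrays, by the smallest mean absolute difference between profiles centred on their own means, were Trim69, Zfp667, 4930563E22Rik, Pdpr and Trim11. The differences were 0.03 to 0.05 log2 units among 9759 genes compared. Each had, as Esr1 did, its lowest value on untreated replicate 1, the next on untreated replicate 2, and none passed the test. With 6 arrays this is a description of likeness and no more.

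Other nuclear receptors were given as context, from a list of 40, of which 35 had a probe and 17 were tested. Of these 1 fell, 0 rose and 16 did not pass, with 7 positive and 10 negative log2 changes and a median of -0.05; over 9760 genes, each represented by its brightest tested probe, the median was 0.04, with 0.594% higher and 2.27% lower. The receptor that fell was Nr4a2, an orphan receptor known as an early response gene. Nr4a2 read 143, 169.6 and 168 units on rosiglitazone arrays and 279.5, 186 and 274 units on untreated arrays. Its normalized values were 6.55, 6.30 and 6.55 log2 units with rosiglitazone and 7.36, 7.46 and 7.14 without, so all rosiglitazone arrays lay below all untreated arrays. It was 1.81-fold lower, with means of 6.47 ± 0.14 and 7.32 ± 0.16 log2 units in rosiglitazone and untreated cells (SD, n = 3; limma adjusted p = 0.030). The call was lost without rosiglitazone replicates 1 or 2 or untreated replicates 1 or 2 (adjusted p = 0.072, 0.15, 0.14 and 0.12), with median scaling (adjusted p = 0.37) and without a detection filter (adjusted p = 0.060), while its log2 change stayed between -0.95 and -0.52. Macrophage markers fell in the same arrays, and their part in this result was not tested. Of its close relatives, named here after their values were seen, Nr4a3 had a log2 change of -0.33 (limma adjusted p = 0.52) and Nr4a1 was not detected on any array.

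The retinoid X receptors are the partners of PPARs, thyroid hormone receptors and the vitamin D receptor on DNA, and are named for that role after their values were seen. Rxra was at 4.86, 4.51 and 4.78 log2 units with rosiglitazone and 4.30, 4.87 and 4.51 without, close to background. Rxrb was at 9.14, 9.14 and 9.34 with rosiglitazone and 8.90, 9.21 and 9.11 without. Their log2 changes of 0.15 and 0.13 did not pass (limma adjusted p = 0.83 for both), and Rxrg was not tested.

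**Figure D3:**
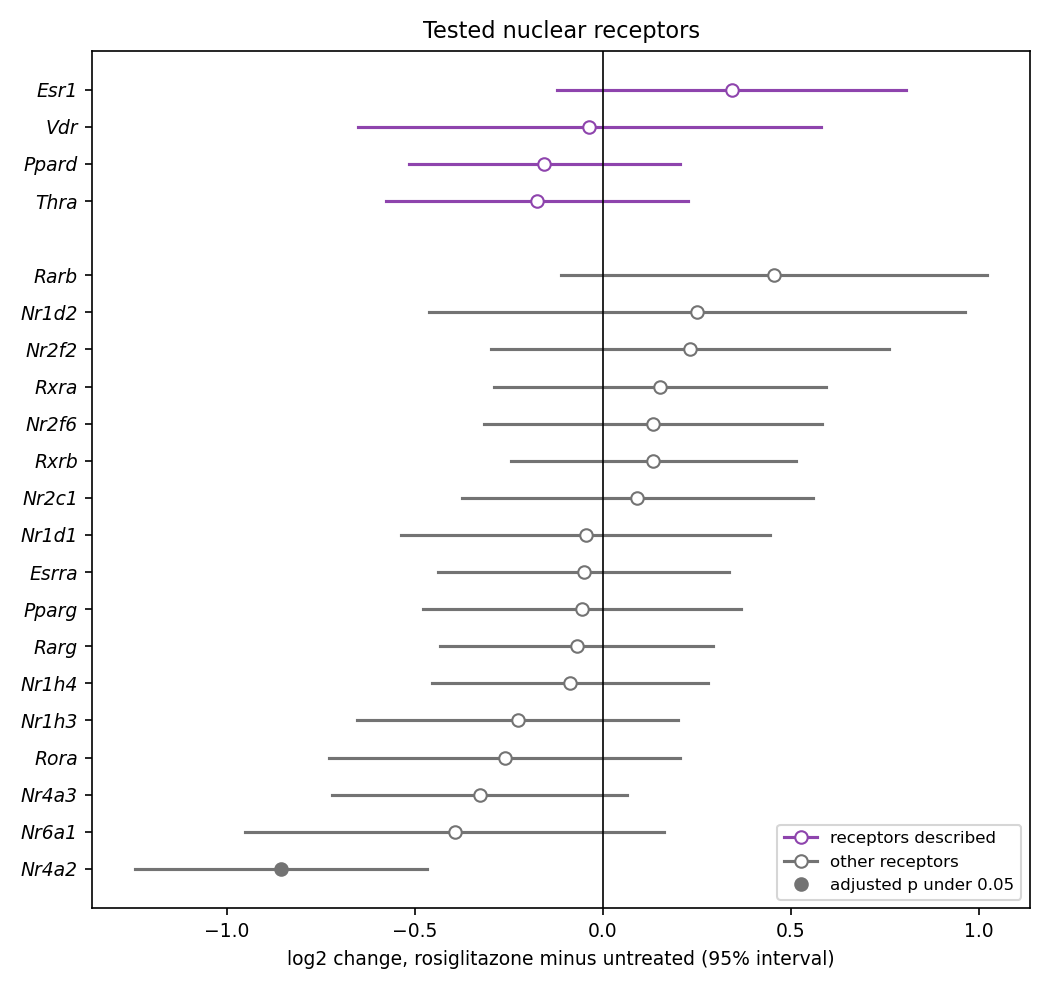
Log2 change, rosiglitazone minus untreated (horizontal), with its 95% interval for the 4 tested receptors described here (purple, above) and the 17 other tested nuclear receptors (grey, below). The interval of each of the 4 includes 0, and Nr4a2, at -0.86, is the only filled point.

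Coregulators that receptors recruit were measured next. Of 21 listed coactivators, corepressors and their subunits, 13 were tested, 0 passed, 9 changes were positive and 4 negative, and the median log2 change was 0.09. Ppargc1b, a coactivator of PPARs and estrogen-related receptors, was at 4.55, 5.19 and 5.70 log2 units with rosiglitazone and at 5.48, 5.92 and 5.94 without, and its log2 change of -0.63 did not pass (limma adjusted p = 0.39). Crebbp, a histone acetyltransferase, had a log2 change of 0.27 (limma adjusted p = 0.74). The only probe of Nrip1, a corepressor of fat metabolism genes, was not detected on any array, and Ncor1 was not analysed here. Among the chaperones that hold steroid receptors, 7 of 9 were tested and 0 passed (median -0.17). Hsp90aa1 and Hspa8 had log2 changes of -0.27 and -0.21 (limma adjusted p = 0.69 and 0.74) by their brightest probes. Their other tested probes disagreed in sign, at 0.25 for Hsp90aa1 and at -0.59 and 0.08 for Hspa8, and did not pass.

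Glucocorticoid response genes were set beside Nr3c1, whose probe gave no signal. No glucocorticoid was varied between the groups, so these genes do not replace a measure of the receptor. Of 20 listed, 17 were tested, 1 fell, 0 rose and 16 did not pass, while 2.27% of all tested genes fell. The list had 5 positive and 12 negative changes and a median log2 change of -0.13. The sign of that median rests on single arrays, being 0.04 without rosiglitazone replicate 3 and 0.01 without untreated replicate 3. The gene that fell was Lcn2, which encodes a siderophore-binding protein of phagocytes and fat and is not a measure of hormone action alone. Lcn2 was at 4.66, 5.11 and 5.04 log2 units with rosiglitazone and 7.21, 6.66 and 7.56 without, 4.61-fold lower (limma adjusted p = 0.00086), and was detected on 2 of 3 rosiglitazone arrays. That fold is set against values near background: the log2 change was -2.21 here, but -1.05 without background correction and -1.06 on the authors' normalized table, and passed in both. Macrophage markers, at a summed 2410 to 5620 units on rosiglitazone arrays and 16072 to 20520 units on untreated arrays, moved with it, and their part in the result was not tested.

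Fkbp5, Tsc22d3 and Klf9, targets of the glucocorticoid receptor, had values that overlapped between the groups. Fkbp5, an immunophilin that restrains the receptor and is induced by it, was at 5.86, 6.26 and 6.41 log2 units with rosiglitazone and 5.81, 6.34 and 6.90 without, a log2 change of -0.17 (limma adjusted p = 0.87). Tsc22d3, the leucine zipper gene GILZ, was at 8.99, 10.14 and 9.89 with rosiglitazone and 9.85, 9.39 and 10.37 without by its brightest probe (log2 change -0.20, limma adjusted p = 0.88), and its other 2 tested probes had changes of -0.12 and -0.11. Klf9, a target of glucocorticoid and thyroid hormone receptors, had a log2 change of 0.13 (limma adjusted p = 0.86).

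Enzymes that make or remove steroid ligands had mostly positive changes that did not pass. Of 16 listed, 9 were tested, 0 passed, 8 changes were positive and 1 negative, and the median log2 change was 0.27; 55.7% of all tested genes had a positive change. Hsd11b1, which regenerates active glucocorticoid inside cells, was at 12.01, 12.54 and 12.86 log2 units with rosiglitazone and 11.69, 11.56 and 12.00 without. Its rosiglitazone arrays all lay above its untreated arrays, the closest pair being rosiglitazone replicate 1 and untreated replicate 3, and the log2 change of 0.72 ± 0.24 did not pass (limma adjusted p = 0.22; 95% interval 0.19 to 1.24). The other 2 tested Hsd11b1 probes had changes of 0.67 and 0.65 (limma adjusted p = 0.28 and 0.41). Hsd11b2, which inactivates glucocorticoid, was picked after its values were seen. Its brighter and dimmer probes, both near background, had log2 changes of 0.611 and 0.610 (limma adjusted p = 0.41 and 0.12), and neither passed.

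Akr1c18, a hydroxysteroid dehydrogenase that inactivates progesterone, was at 8.31, 8.17 and 5.89 log2 units with rosiglitazone and at 5.40, 5.67 and 4.88 without. Rosiglitazone replicates 1 and 2 were far above the other 4 arrays, and replicate 3 only just above them. The log2 change of 2.14 ± 0.53 did not pass (limma adjusted p = 0.081). It passed without rosiglitazone replicate 3 (log2 change 2.92, adjusted p = 0.00021), with median scaling (adjusted p = 0.0016), with array weights (adjusted p = 0.010) and with the replicate number as a block (adjusted p = 0.0045). It did not pass in the other 12 settings, with a log2 change as low as 1.21 without background correction (adjusted p = 0.20) and an adjusted p of up to 0.42 without a detection filter.

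Estrogen and progesterone response genes, set beside Esr1 and Pgr, included 10 tested of 14 listed. Of these 0 passed, 4 changes were positive and 6 negative, and the median log2 change was -0.04 (0.02 without rosiglitazone replicate 2 and 0.03 without untreated replicate 2). Greb1, an estrogen-induced gene of breast tissue, was at 7.62, 7.43 and 7.13 log2 units with rosiglitazone and 6.30, 4.44 and 6.69 without, and was not detected on 1 of 3 untreated arrays. The groups did not overlap, but untreated replicate 2 lay far below the others, and the log2 change of 1.58 ± 0.47 did not pass (limma adjusted p = 0.16). A second Greb1 probe had a change of 1.03 (limma adjusted p = 0.12), and the brighter probe passed without untreated replicate 3 (log2 change 2.02, adjusted p = 0.047). Its log2 change was 0.90 without untreated replicate 2 (adjusted p = 0.12) and 0.83 without background correction (adjusted p = 0.14). Pgrmc1, a membrane haem protein linked to progesterone signalling, had a log2 change of 0.46 (limma adjusted p = 0.42).

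**Figure D4:**
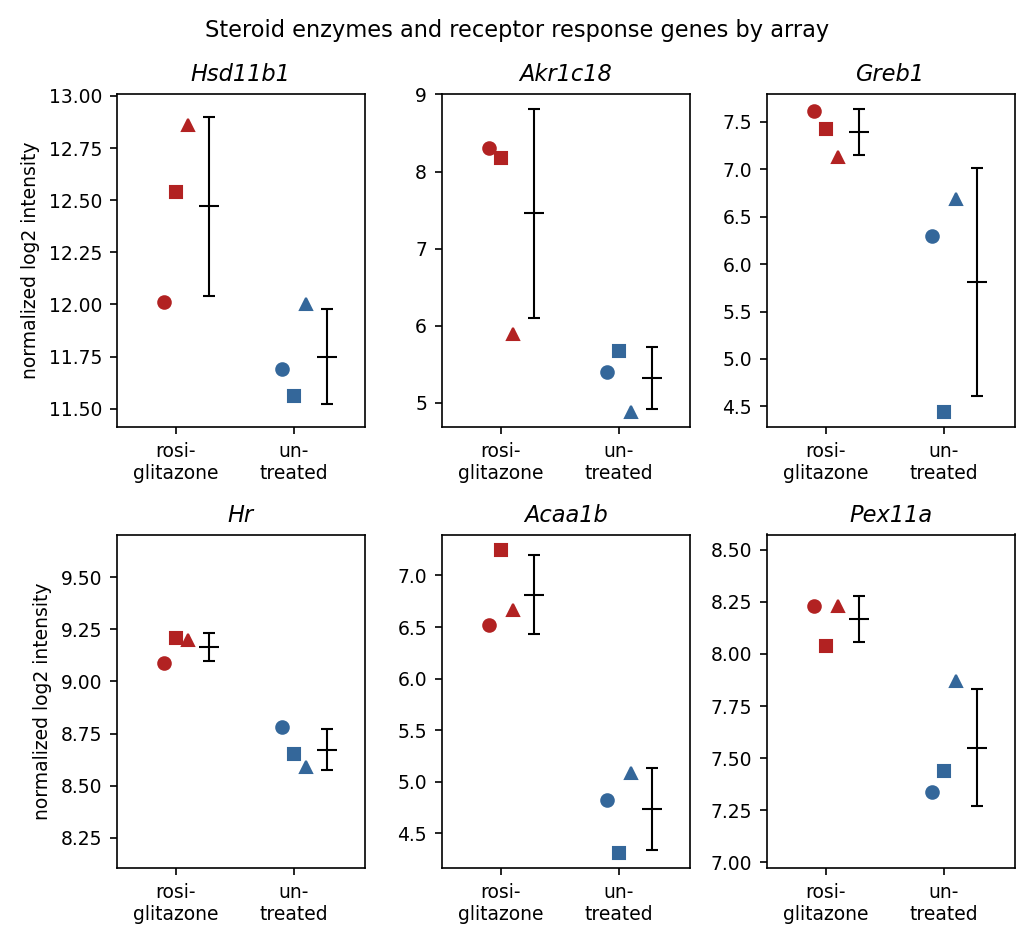
Normalized log2 intensity (vertical, a scale for each panel) of Hsd11b1, Akr1c18, Greb1, Hr, Acaa1b and Pex11a on 3 rosiglitazone and 3 untreated arrays, with a symbol per replicate and the mean ± SD in black. All 6 genes have rosiglitazone arrays above untreated arrays without overlap, and 18.5% of all tested genes had groups that do not overlap; of the 6 only Acaa1b, at 6.52 to 7.25 with rosiglitazone and 4.31 to 5.09 without, passed the test; Pex11a, a peroxisome gene, was picked after its values were seen, and Akr1c18, Hsd11b1, Greb1 and Hr were named for p-values among the 2 smallest of their lists.

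Genes of thyroid hormone handling and response had 7 tested members of 14, of which 0 passed (median log2 change 0.13). Hr, a corepressor gene that thyroid hormone induces in brain, was at 9.09, 9.21 and 9.20 log2 units with rosiglitazone and 8.78, 8.65 and 8.59 without. The groups did not overlap and the spread within them was small, yet the log2 change of 0.49 ± 0.16 did not pass (limma adjusted p = 0.22). It passed, with smaller log2 changes of 0.42 and 0.43, without background correction (adjusted p = 0.0480) and on the authors' normalized table (adjusted p = 0.0484), and in none of the other 14 settings. The dimmer tested Hr probe had a log2 change of 0.38 (limma adjusted p = 0.48). Me1, the malic enzyme gene, had a log2 change of 0.34 (limma adjusted p = 0.63). The 2 probes of Dio2, whose product activates thyroid hormone, were not among those tested.

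Response genes of PPARalpha or PPARdelta, many of which PPARgamma also drives in fat, had 20 tested members of 30. Of these 1 rose, 0 fell and 19 did not pass, with 16 positive and 4 negative changes and a median log2 change of 0.24. Over all tested genes 0.594% were higher, 55.7% had a positive change and the median was 0.04. The gene that rose was Acaa1b, a peroxisomal thiolase of fatty acid oxidation, at 6.52, 7.25 and 6.67 log2 units with rosiglitazone and 4.82, 4.31 and 5.09 without, 4.20-fold higher (limma adjusted p = 0.0014). It was detected on all 3 rosiglitazone arrays and on 2 of 3 untreated arrays, so its fold is set partly against background. The log2 change was 2.07 here, but 0.91 without background correction and 0.93 on the authors' normalized table, and passed in both. Angptl4, a secreted inhibitor of lipoprotein lipase that PPARs and glucocorticoids induce, was at 12.11, 12.20 and 12.18 log2 units with rosiglitazone and 11.89, 11.59 and 12.02 without, without overlap, and its log2 change of 0.33 did not pass (limma adjusted p = 0.52); its dimmer probe had a change of 0.71 (limma adjusted p = 0.36). Pdk4, a kinase that shuts down glucose oxidation, was at 8.06, 8.42 and 7.26 with rosiglitazone and 6.90, 6.40 and 7.87 without (log2 change 0.86, limma adjusted p = 0.40). The lowest of the 4 negative changes was that of Plin2, picked after its values were seen, at -0.47 (limma adjusted p = 0.48).

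Vitamin D handling and response was the least measured set, with 3 tested members of 13 and 6 whose probes were detected on no array, among them Cyp24a1, the hydroxylase that vitamin D induces, and Cyp27b1, which makes the active hormone. Of the 3, 1 fell, 0 rose and 2 did not pass, while 2.27% of all tested genes fell. The gene that fell was Cd14, a lipopolysaccharide co-receptor of monocytes and macrophages, which vitamin D induces in human myeloid cells. Cd14 was at 8.53, 8.91 and 6.78 log2 units with rosiglitazone and 10.50, 10.39 and 10.09 without, 4.76-fold lower (limma adjusted p = 0.026). Rosiglitazone replicate 3 was the lowest, and without it the log2 change was -1.60 in place of -2.25 and passed (adjusted p = 0.0020). The call was lost without untreated replicates 1 or 2 (adjusted p = 0.14 and 0.10), without a detection filter (adjusted p = 0.26) and when the variance was fitted with a trend and robustly (adjusted p = 0.23), with log2 changes of -2.16 to -2.25 in those settings. The 12 macrophage markers that fell did so in the same arrays, by a median of -2.50 over the 13 tested, and their part in the fall of Cd14 was not tested. Cyp27a1, a sterol hydroxylase, had a log2 change of -0.11 (limma adjusted p = 0.92), and its other tested probes were at -0.10 and 0.21.

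Over all these lists together, without the 9 receptors, 100 of 173 genes were tested; 1 rose, 3 fell, and 4.0% passed altogether, against 2.87% of the 9760 genes tested. The 4 were Acaa1b, Nr4a2, Lcn2 and Cd14.

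**Figure D5:**
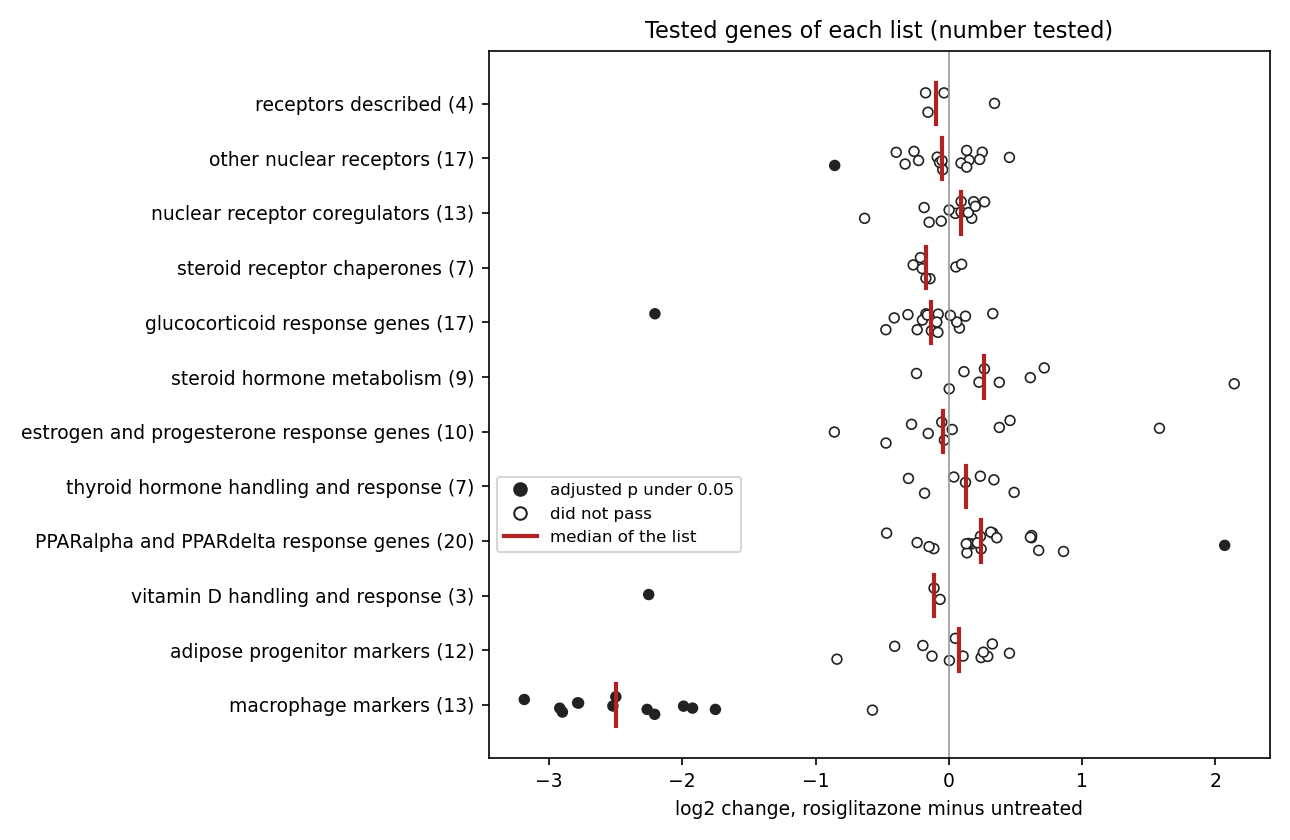
Log2 change, rosiglitazone minus untreated (horizontal), of each tested gene by list, with the median in red and filled points for an adjusted p under 0.05; the number tested is in brackets. Filled points are Nr4a2, Lcn2, Acaa1b and Cd14 in the receptor-related lists, and 12 of 13 macrophage markers, whose median is -2.50.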

How the data were processed

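Biotinylated cRNA was hybridised to Illumina mouse bead arrays, per the labels' protocols. The authors deposited a non-normalized table of probe intensity on a linear scale, with a detection p-value beside each value, per the file headers, and a normalized intensity table whose method is not given in the sources used here. Its columns share a distribution (sorted columns at most 0.446 units apart), and the deposited series table equals it. No header names a scanner or a background step.

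The linear values were background-corrected by normexp with parameters taken from the detection p-values (offset 16), quantile-normalized and put on the log2 scale with limma 3.58.1 in R 4.3.3. The offset understates the change of dim probes. The 16442 probes detected (p under 0.05) on 3 or more of the 6 arrays were tested with lmFit and eBayes, no covariates, and Benjamini-Hochberg adjustment over all of them at 0.05. A gene was represented by its brightest tested probe. Symbols came from the platform annotation (34885 probes with 1 symbol, 18 with several, 10378 unnamed here). The number of arrays limits the precision, though the simulation described next did not vary that number. Data were simulated for this comparison (16442 probes, 200 changed) with each probe's observed within-group SD taken as its true spread. In them 0% of 1.5-fold, 28.2% of 2-fold and 91.7% of 4-fold changes were recovered. False calls per draw were 0, 2.8 and 9 in that order. An SD from 3 arrays per group is itself uncertain, so recovery in the measured data may differ from these shares.

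The receptors and gene lists were chosen with earlier results of these data known. Named were all 9 receptors, other receptors and list genes past the threshold, otherwise the 2 list members with the smallest p. Also named were Fkbp5, Tsc22d3, Hsd11b1, Klf9, Angptl4, Pdk4, Ncor1, Nrip1 and Dio2 (Ncor1 not analysed here), and the 5 genes most like the receptor with the largest change. Others are said to be chosen after their values were seen. Cyp27a1, Cyp24a1, Cyp27b1 and Itgam were also named outside this rule. Marker lists of lymphocytes (3 tested, median log2 change 0.15), endothelium (11, -0.23), mesothelium (3, 0.35), erythroid cells (5, -1.15) and mature adipocytes (6, 0.01) had 0 past the threshold. Of 8 mural markers 2 fell (median -0.55), while 2.27% of all tested genes fell. The mesothelial marker Upk3b, picked after its values were seen, had a log2 change of 1.21 (limma adjusted p = 0.24). Without rosiglitazone replicate 3, 1 of the 3 mesothelial markers passed as higher. The erythroid values rest on single arrays: the median was -0.20 without untreated replicate 2 and -2.28 without untreated replicate 3, where 4 of 5 passed. No mural marker passed with median scaling or without rosiglitazone replicate 1 or untreated replicates 1 or 2, and the mural median ran from -0.79 to -0.32 with single arrays left out. Blocking on the chip was impossible, as no header or label identifies one.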

Additional observations from a re-analysis of the deposited data

How the results depend on the processing

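The count of receptor probes past the threshold was 0 under all 16 alternatives, with 3 to 17 of these probes tested, and no adjusted p of the 4 tested receptors was under 0.298. Signs were kept for Esr1, Thra and Ppard; for Vdr the log2 change ran from -0.33 to 0.18 when single arrays were left out (0.088, 0.135 and 0.177 without rosiglitazone replicates 2 or 3 or untreated replicate 3). Over all probes 392 passed (81 higher, 311 lower), 260 with median scaling (30 higher, 230 lower), 157 without a detection filter (26 higher, 131 lower), 556 with array weights (168 higher, 388 lower), and 216 to 435 when single arrays were left out (216 without untreated replicate 1). The list genes past the threshold numbered 4, 2 without a filter, 2 with detection on all 6 arrays, where Acaa1b and Lcn2 were not tested, and 2 to 6 with single arrays left out (2 without untreated replicates 1 or 2). For the list counts, settings other than median scaling, the block and single arrays left out were chosen after seeing the data, and so were all settings for single list genes. The replicate number as a block gave 475 probes, 0 receptor probes and 5 list genes; deviations of same-numbered arrays correlated at 0.05, -0.01 and 0.35, so the numbers were not taken as pairs, and 1 of 3 rosiglitazone arrays correlated best with its own number. Single arrays were left out after normalization and filtering. A depth limit is set by signal over background: 12 of 17 receptor probes were detected on no array.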
